A study of Mus musculus with 16 samples.

Results

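Cathepsins are the proteases of the lysosome, the acidic compartment in which cells degrade proteins that arrive by endocytosis or autophagy. Most are cysteine proteases of the papain family, cathepsin D is an aspartic protease and cathepsin A is a serine carboxypeptidase. They are made as inactive precursors, are sorted to the lysosome by mannose 6-phosphate tags and are activated by low pH and proteolysis. In the liver, hepatocytes carry them for bulk protein turnover, and macrophages, including Kupffer cells, express several at high levels. The transcription factor TFEB drives many lysosomal genes together through an E-box variant known as the CLEAR element.

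The 10 genes described here are *Ctsz*, *Ctsa*, *Ctsb*, *Ctsc*, *Ctsd*, *Ctsf*, *Ctsh*, *Ctsl*, *Ctso* and *Ctss*, out of 52143 genes in the deposited count table. They were taken by symbol, and the family was chosen by a measured value: the lower *Ctsz* count after knockdown (KD) of FGFR4 in mice on a high-fat diet (HFD). The KD effect on an HFD is therefore given for all 10 as a description with no test. All 10 passed the filter on low values, which left 11324 genes for testing.

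RNA was sequenced from the livers of 16 male C57BL6/J mice in 4 groups of 4. Feeding with Chow or a 60% HFD started at 6 weeks of age and lasted 12 weeks. The Chow and HFD groups (treatment Control) were injected with saline, and the Chow/FGFR4 KD and HFD/FGFR4 KD groups (treatment FGFR4 KD) with an siRNA directed at *Fgfr4* (3 mg/kg). Injections were repeated every 2 weeks. *Fgfr4* encodes the hepatocyte receptor for FGF15, a gut hormone released in response to bile acids. The siRNA carried GalNAc, a sugar taken up by the asialoglycoprotein receptor of hepatocytes, and no group received a non-targeting siRNA, so silencing of *Fgfr4* and exposure to an siRNA cannot be told apart.

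Levels are given as CPM, counts scaled to a library of 1000000 counts, after TMM scaling, a correction for differences in library composition. Changes are log2 differences with their standard error (SE) from limma-voom, and a gene was called changed at p below 0.05 with a Benjamini-Hochberg adjusted p below 0.25. Total estimated counts per library ran from 3445949 to 5976449, and the hepatocyte markers summed to between 60272 and 78171 CPM in every library. *Fgfr4* lay at 21.8 to 36.3 CPM in the 8 saline-treated livers and at 2.43 to 6.17 CPM in the 8 KD livers. On the first principal component, which held 46.1% of the variance of the 500 most variable genes, replicate 1 of HFD/FGFR4 KD lay at -6.33, inside the range of the 8 chow-fed livers (-23.2 to -4.84), while the other 3 livers of its group lay between 16.7 and 20.5. Results that rest on this liver are given with and without it.

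Across all 16 livers the family spanned a wide range of levels. Per kilobase of the shortest principal transcript, *Ctsl*, a cysteine endopeptidase, was the most abundant at 208 ± 29 CPM per kb (SD, n = 16). *Ctsd*, the aspartic protease, followed at 104 ± 16.3, then the aminopeptidase *Ctsh* at 93.5 ± 5.97, *Ctsb*, an endopeptidase and dipeptidyl carboxypeptidase, at 86.3 ± 12.1 and the carboxypeptidase *Ctsz* at 72 ± 12.3 CPM per kb. *Ctsd*, *Ctsh* and *Ctsb* each differed from the next of the 3 by less than the SD of the more variable gene of the pair, and the ranges of *Ctsb* and *Ctsz* over the livers overlapped. The order rests on the division by length and on this choice of transcript, and a longer *Ctsl* transcript would lower its value. Without division by length *Ctsl* (411 ± 57.2 CPM) and *Ctsb* (410 ± 57.4 CPM) were level. A lower tier held *Ctsc*, the dipeptidyl peptidase that activates granule serine proteases, at 24.2 ± 5.58 CPM per kb and *Ctsa*, the protective protein of lysosomal galactosidase and neuraminidase, at 20.5 ± 2.71. *Ctso* at 11.4 ± 1.94, *Ctss*, the invariant chain protease of antigen-presenting cells, at 9.24 ± 3.87 and *Ctsf* at 7.3 ± 1.36 CPM per kb were lowest and also overlapped. *Ctss* varied most between livers, with a coefficient of variation of 41.9% in CPM, and *Ctsh* least, at 6.39%.

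In the mouse genome (GRCm38) the 10 genes are scattered over 7 chromosomes. *Ctsz* (ENSMUSG00000016256) is at chr2:174427493-174439039 on the minus strand and *Ctsa* (ENSMUSG00000017760) on the plus strand of the same chromosome at chr2:164832873-164841032. *Ctsd* (ENSMUSG00000007891, chr7:142375911-142388038, minus strand) and *Ctsc* (ENSMUSG00000030560, chr7:88278085-88310888, plus strand) share chromosome 7, and *Ctso* (ENSMUSG00000028015, chr3:81932601-81956725) and *Ctss* (ENSMUSG00000038642, chr3:95526786-95556403) share the plus strand of chromosome 3. The remaining genes are *Ctsb* (ENSMUSG00000021939, chr14:63122462-63145923, plus strand), *Ctsl* (ENSMUSG00000021477, chr13:64359337-64370890, minus strand), *Ctsh* (ENSMUSG00000032359, chr9:90054152-90076089, plus strand) and *Ctsf* (ENSMUSG00000083282, chr19:4855130-4860918, plus strand). All 10 are protein coding. Transcript sequence shared with other genes limits how far reads can be assigned: 33.2% of the 31-base words of *Ctsd* also occur in the annotated gene *Gm49369*, which was estimated at no more than 4.03 CPM in any liver. The share was 28.2% for *Ctsl*, 14.6% for *Ctsa* and 13% for *Ctsb*, and 0 for *Ctsz*, *Ctsf* and *Ctss*.

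Promoter windows of 300 bases (250 before and 50 after the start site) were available for 8 of the 10 genes from RefSeq on GRCm38.p6. The window of *Ctsz* is printed as that of the gene from which the family was chosen, together with the 6 member windows that held an E-box or an interferon-type element. Capitals mark the E-box CACGTG, with any flanking base that makes it TCACGTG on either strand, or an interferon-type element, which is GAAA, any 2 bases and GAAA. In *Ctsz*, which held neither, capitals mark the GC box GGGCGGG. The motifs were chosen after the sequences were seen.
Ctsz, chr2:174438990-174439289, minus strand: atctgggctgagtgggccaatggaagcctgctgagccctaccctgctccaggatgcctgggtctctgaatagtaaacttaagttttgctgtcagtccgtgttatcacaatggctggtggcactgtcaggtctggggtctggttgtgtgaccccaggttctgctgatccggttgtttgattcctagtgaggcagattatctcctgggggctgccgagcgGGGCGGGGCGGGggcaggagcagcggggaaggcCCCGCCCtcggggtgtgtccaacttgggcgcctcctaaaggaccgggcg
Ctsa, second of 2 windows, chr2:164833523-164833822, plus strand: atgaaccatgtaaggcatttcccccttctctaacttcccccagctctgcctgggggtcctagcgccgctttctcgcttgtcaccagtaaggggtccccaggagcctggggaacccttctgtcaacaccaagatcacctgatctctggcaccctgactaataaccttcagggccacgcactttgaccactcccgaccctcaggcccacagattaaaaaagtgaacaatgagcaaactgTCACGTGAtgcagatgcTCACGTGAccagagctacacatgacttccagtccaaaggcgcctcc
Ctsd, chr7:142387778-142388077, minus strand: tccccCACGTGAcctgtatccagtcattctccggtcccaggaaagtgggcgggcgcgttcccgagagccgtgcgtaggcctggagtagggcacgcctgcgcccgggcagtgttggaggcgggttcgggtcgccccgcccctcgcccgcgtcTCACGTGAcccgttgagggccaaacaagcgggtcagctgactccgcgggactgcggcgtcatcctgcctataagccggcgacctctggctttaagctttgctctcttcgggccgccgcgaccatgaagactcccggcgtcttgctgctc
Ctsf, chr19:4854915-4855214, plus strand: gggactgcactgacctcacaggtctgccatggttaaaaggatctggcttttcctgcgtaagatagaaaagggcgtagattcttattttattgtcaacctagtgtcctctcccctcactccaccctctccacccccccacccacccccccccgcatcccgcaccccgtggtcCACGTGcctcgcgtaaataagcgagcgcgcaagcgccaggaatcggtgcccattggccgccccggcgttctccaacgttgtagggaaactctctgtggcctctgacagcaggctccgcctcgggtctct
Ctsl, chr13:64370471-64370770, minus strand: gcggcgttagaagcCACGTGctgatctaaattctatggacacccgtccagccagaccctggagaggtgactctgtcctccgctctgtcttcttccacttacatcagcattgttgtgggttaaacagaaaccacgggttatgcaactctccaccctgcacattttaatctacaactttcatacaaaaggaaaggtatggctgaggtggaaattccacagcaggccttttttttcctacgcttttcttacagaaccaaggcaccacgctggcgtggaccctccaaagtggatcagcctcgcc
Ctss, chr3:95526536-95526835, plus strand: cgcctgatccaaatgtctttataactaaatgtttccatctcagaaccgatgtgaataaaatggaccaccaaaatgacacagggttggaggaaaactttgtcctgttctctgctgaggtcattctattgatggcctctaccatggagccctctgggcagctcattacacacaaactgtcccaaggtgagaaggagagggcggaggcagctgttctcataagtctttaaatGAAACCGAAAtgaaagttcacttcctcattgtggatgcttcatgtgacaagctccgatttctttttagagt
Ctso, chr3:81932351-81932650, plus strand: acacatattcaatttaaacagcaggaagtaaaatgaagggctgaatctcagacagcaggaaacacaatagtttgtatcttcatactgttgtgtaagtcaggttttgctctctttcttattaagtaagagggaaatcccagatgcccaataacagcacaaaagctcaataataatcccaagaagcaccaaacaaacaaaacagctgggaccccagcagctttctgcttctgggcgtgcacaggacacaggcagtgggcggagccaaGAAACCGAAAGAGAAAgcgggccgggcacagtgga
CACGTG was present in 4 of the 8 members with a window. Of the 2 windows of *Ctsa*, only the second held it. Among all 32851 windows of the same length, which belong to 27025 genes, 7.15% held it. That is a share of windows and not of genes. *Ctsa* held it at positions -12 and 6 from the start site and *Ctsd* at -245 and -98, in each case within TCACGTG, a string found in 3.77% of all windows. *Ctsf* held CACGTG at -79 and *Ctsl* at -236, without the flanking base. *Ctss* held the interferon-type element at -21, and *Ctso* held overlapping copies at 16 and 22, against 3.44% of all windows. *Ctsz* held 3 GC boxes, at -32, -27 and 2, of which the first pair overlap, and 25.6% of all windows held GGGCGGG. GC boxes were also present in *Ctsd*, at -204 and -118 (not marked above), and in *Ctsc*, at -17 (window not printed). These matches are descriptions of the letters and not evidence of binding.

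**Figure D1:**
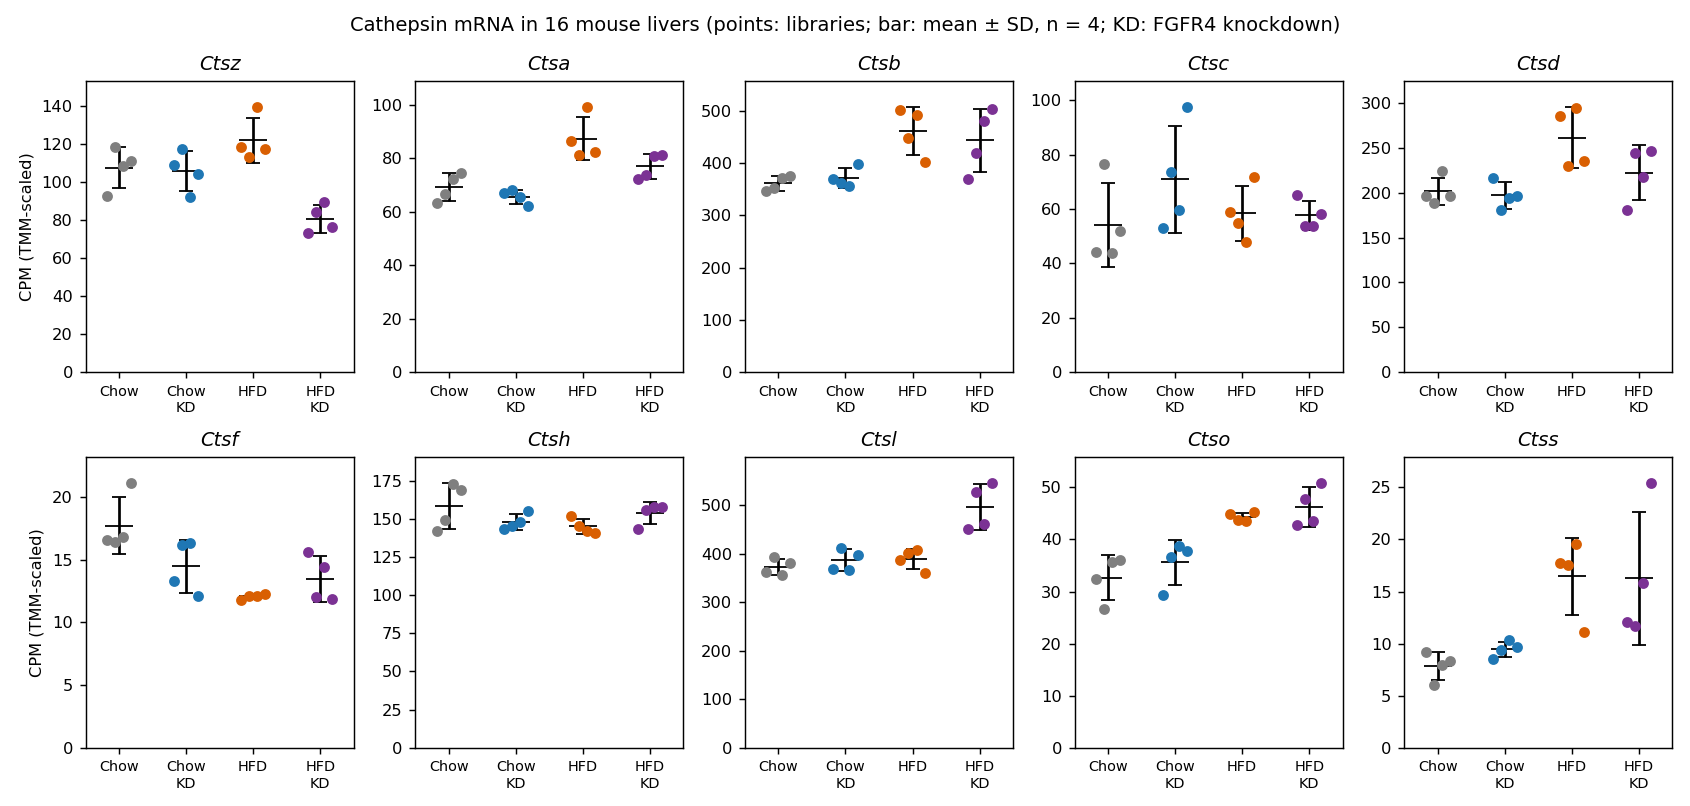
CPM of the 10 cathepsins in each of the 16 livers (points), with the mean and SD of the 4 livers of each group (bars); KD stands for FGFR4 KD and every vertical axis starts at 0. The HFD/FGFR4 KD livers of *Ctsz* lie at 73.1 to 89.3 CPM, below all 12 other livers, and those of *Ctsl* at 450 to 545 CPM, above all 12 others.

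The first question was whether the lower *Ctsz* after FGFR4 KD on an HFD was shared by the family. *Ctsz* in HFD livers was 118, 113, 139 and 117 CPM for replicates 1 to 4, and in HFD/FGFR4 KD livers 73.1, 83.9, 89.3 and 76.2 CPM. All 4 KD livers lay below all 4 saline livers, with group means of 122 ± 11.8 and 80.6 ± 7.38 CPM (SD, n = 4). The estimated change was -0.59 log2 (SE 0.1), and -0.54 without replicate 1 of HFD/FGFR4 KD. As a share of the summed reads of the 10 genes, *Ctsz* made up 7.61% ± 0.515 in HFD livers and 5.03% ± 0.501 in HFD/FGFR4 KD livers, against 7.75% ± 0.577 in Chow.

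The rest of the family did not move together in this contrast. Of the other 9 genes, 4 had estimates above 0 and 5 below 0, with a median of -0.0013 log2 against 0.0035 over all genes. Across all 10, *Ctsz* (lower) and *Ctsl* (higher) were past the threshold, where 3.14% of all genes tested were (1.50% higher and 1.64% lower), figures from which nothing is read because this contrast set the choice of genes. *Ctsl* lay at 386, 402, 407 and 360 CPM in HFD livers and at 450, 526, 460 and 545 CPM in HFD/FGFR4 KD livers. Its KD livers were all above its saline livers, with an estimated change of 0.35 log2 (SE 0.0793) and 0.39 without replicate 1. *Ctsa* was the other gene whose groups did not overlap (6.49% of all genes, 3.16% higher and 3.33% lower), at 86.6, 81.4, 99 and 82.2 CPM in HFD and 72.2, 73.7, 80.7 and 81.4 CPM in HFD/FGFR4 KD. The gap for *Ctsa* was narrow, with 81.4 CPM both the lowest saline value and the highest KD value to 3 digits, and the change was -0.18 log2 (SE 0.0812).

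*Ctsd* was estimated at -0.23 log2 (SE 0.11), with overlapping groups, and at -0.14 without replicate 1 of HFD/FGFR4 KD. *Ctsf* was at 0.16, *Ctss* at -0.10, *Ctsh* at 0.084, *Ctsb* at -0.06, *Ctso* at 0.052 and *Ctsc* at -0.0013 log2. For these 6 genes the saline and KD livers on an HFD overlapped. Without replicate 1, *Ctsb* was at 0.025 and *Ctss* at 0.0053 log2, so that their sign in this contrast depended on this liver. The other genes were then at -0.15 (*Ctsa*), -0.061 (*Ctsc*), 0.10 (*Ctsf*), 0.12 (*Ctsh*) and 0.087 log2 (*Ctso*). The summed CPM of the 10 genes was 1597 ± 102 in HFD and 1607 ± 137 in HFD/FGFR4 KD livers, so the lower *Ctsz* was not accompanied by a lower family total.

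Next, KD on chow was examined, which uses none of the livers that set the choice of genes. None of the 10 cathepsins was called by limma-voom, edgeR or DESeq2, and 0.00883% of all genes tested (1 gene, *Fgfr4*) were called by limma-voom. *Ctsz* was 92.5, 118, 108 and 111 CPM in Chow and 109, 117, 92 and 104 CPM in Chow/FGFR4 KD livers. These ranges overlapped throughout, and the change of -0.021 log2 (SE 0.101, limma-voom adjusted p = 0.987) had a 95% interval from -0.23 to 0.19. The difference between both KD effects was estimated at -0.57 log2 (SE 0.142, 95% interval -0.87 to -0.27), which is a description because it contains the contrast that chose *Ctsz*.

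At an unadjusted p below 0.05, 1 of the 10 genes differed with KD on chow, as did 519 of the 11324 genes tested. *Ctsf*, which degrades the invariant chain in macrophages, was 16.6, 16.4, 16.8 and 21.1 CPM in Chow and 13.3, 16.2, 16.3 and 12.1 CPM in Chow/FGFR4 KD livers. The KD livers were all lower, with 16.3 CPM the highest of them and 16.4 CPM the lowest saline value (groups did not overlap for 2.52% of all genes, 1.33% higher and 1.18% lower), and the change of -0.29 log2 (SE 0.13) had a limma-voom adjusted p of 0.976. For *Ctsf* and each other gene the direction of KD on chow can be set beside that on an HFD only as values: *Ctsf* -0.29 and 0.16, *Ctsl* 0.048 and 0.35, *Ctsc* 0.39 and -0.0013, and *Ctss* 0.25 and -0.10 log2. *Ctsc* on chow had wide intervals, from -0.012 to 0.80 log2, with Chow livers at 43.6 to 76.6 CPM and Chow/FGFR4 KD livers at 52.8 to 97.3 CPM. The other 5 genes, *Ctsa*, *Ctsb*, *Ctsd*, *Ctsh* and *Ctso*, ranged from -0.095 to 0.11 log2 with KD on chow.

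**Figure D2:**
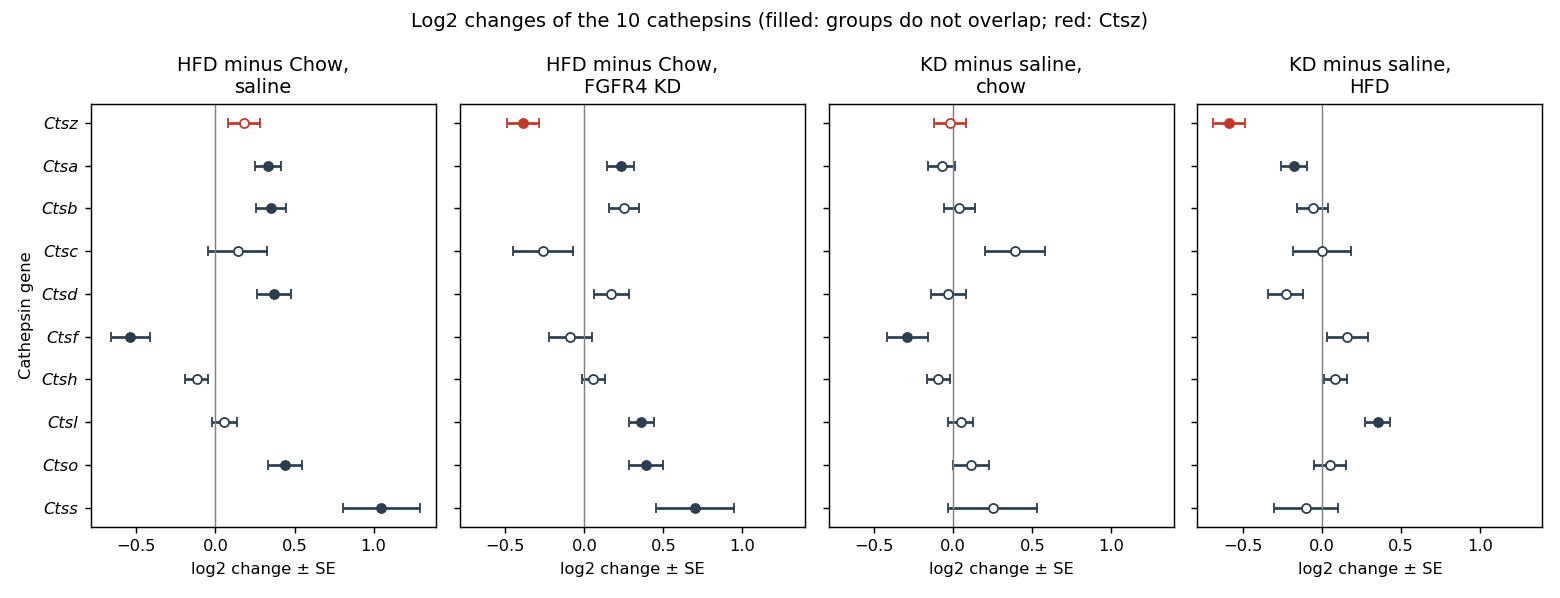
Log2 change (points) and SE (bars) of each cathepsin in the 4 comparisons; filled points mark groups of livers that do not overlap and red marks *Ctsz*. *Ctsz* lies at -0.59 with KD on an HFD and at -0.021 with KD on chow, while *Ctss* lies at 1.05 and *Ctsf* at -0.54 with an HFD in saline-treated mice.

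More of the family was called with the diet than with KD on chow, as was so over all genes tested. In saline-treated mice, 6 of the 9 cathepsins other than *Ctsz* were called changed with an HFD (5 higher and 1 lower), all at an adjusted p below 0.05, where 26% of all genes tested were called (13.3% higher and 12.7% lower) and 9.20% had an adjusted p below 0.05. The median of the 9 was 0.33 log2, against 0.007 over all genes. The HFD livers are also the controls of the KD comparison on an HFD. The 6 genes were also those whose Chow and HFD livers did not overlap, as was so for 8.33% of all genes with HFD livers higher and 7.76% with HFD livers lower.

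*Ctss* rose most. It was 9.23, 6, 7.91 and 8.29 CPM in Chow livers and 17.7, 17.5, 19.6 and 11.1 CPM in HFD livers, so that every HFD liver was above every Chow liver and replicate 4 of HFD was nearest to them. The means of 7.86 ± 1.36 and 16.5 ± 3.71 CPM differed by 1.05 log2 (SE 0.244, limma-voom adjusted p = 0.0139). *Ctso*, a little-studied papain-family protease, rose from 32.4, 26.6, 35.7 and 36 CPM in Chow to 44.8, 43.8, 43.5 and 45.2 CPM in HFD livers. The HFD livers of *Ctso* were tightly grouped (44.3 ± 0.802 CPM), and the change was 0.44 log2 (SE 0.106, adjusted p = 0.0157).

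The abundant proteases *Ctsd* and *Ctsb* rose as well. *Ctsd* was 196, 189, 224 and 197 CPM in Chow and 286, 230, 295 and 235 CPM in HFD livers, a change of 0.37 log2 (SE 0.11, limma-voom adjusted p = 0.0437). *Ctsb* was 347, 352, 371 and 376 CPM in Chow and 502, 449, 492 and 402 CPM in HFD livers, a change of 0.35 log2 (SE 0.0967, adjusted p = 0.0332). For both genes replicates 1 and 3 of HFD were the highest livers, and these were also farthest from chow on the first principal component (25.7 and 30.4). *Ctsa* rose by 0.33 log2 (SE 0.082, limma-voom adjusted p = 0.0176), from 63.4, 66.8, 72.2 and 74.6 CPM in Chow to 86.6, 81.4, 99 and 82.2 CPM in HFD livers. Of the 4 genes with CACGTG in the windows printed above, *Ctsa* and *Ctsd* were called higher with the diet, *Ctsf* was called lower and *Ctsl* was not called. The part of these motifs in any change was not tested.

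*Ctsf* moved the other way. Its HFD livers lay at 11.8, 12.1, 12.1 and 12.3 CPM, all below the Chow livers at 16.4 to 21.1 CPM, and it fell by 0.54 on the log2 scale (SE 0.124, limma-voom adjusted p = 0.0123). With scaling by library totals only, which moved the median of all genes to 0.29 log2, the *Ctsf* change was -0.27 log2 with an adjusted p of 0.159. *Ctsl*, *Ctsh* and *Ctsc* were not called, at 0.057 (SE 0.0789, adjusted p = 0.691), -0.12 (SE 0.0738, adjusted p = 0.315) and 0.14 log2 (SE 0.189, adjusted p = 0.688). *Ctsz* was estimated at 0.18 log2 (SE 0.0993), a description with no test, with Chow and HFD livers overlapping.

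In KD mice, 5 of the 9 other cathepsins were called higher with an HFD and none lower. Over all genes tested 20.2% were called (10.1% higher). These livers are separate from those of the saline comparison. The HFD/FGFR4 KD livers are, however, also part of the contrast that set the choice of genes. The median of the 9 was 0.23 log2, against -0.0088 over all genes. Groups of livers did not overlap for 4 of the 9, all higher, and for 5.93% of all genes higher and 5.61% lower. Of the 9, only *Ctsl* had an adjusted p below 0.05 (3.10% of all genes). It was 369, 412, 366 and 398 CPM in Chow/FGFR4 KD and 450, 526, 460 and 545 CPM in HFD/FGFR4 KD livers, with no overlap. The change was 0.36 log2 (SE 0.0788, limma-voom adjusted p = 0.0231), and 0.40 without replicate 1 of HFD/FGFR4 KD (adjusted p = 0.0131). The same HFD/FGFR4 KD values of *Ctsl* enter the KD contrast on an HFD.

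*Ctso* (0.39 log2, SE 0.108, limma-voom adjusted p = 0.0629), *Ctss* (0.70 log2, SE 0.245, adjusted p = 0.125), *Ctsb* (0.25 log2, SE 0.0962, adjusted p = 0.162) and *Ctsa* (0.23 log2, SE 0.0843, adjusted p = 0.146) were the other 4 called. *Ctso* was 29.3, 36.6, 38.8 and 37.8 CPM in Chow/FGFR4 KD and 42.7, 47.8, 43.5 and 50.8 CPM in HFD/FGFR4 KD livers, again without overlap. *Ctss* was 8.53, 9.37, 10.3 and 9.65 CPM in Chow/FGFR4 KD and 12.1, 11.7, 15.8 and 25.4 CPM in HFD/FGFR4 KD livers. Its call rested on the last liver, since without replicate 4 of HFD/FGFR4 KD the change was 0.50 log2 with an adjusted p of 0.273. The calls of *Ctsa* and *Ctsb* were lost in 3 and 5 of the 8 fits that left out a liver, with adjusted p up to 0.305 and 0.388. Without replicate 1 of HFD/FGFR4 KD all 5 calls remained, with *Ctso* at 0.42, *Ctss* at 0.80, *Ctsb* at 0.33 and *Ctsa* at 0.26 log2 (limma-voom adjusted p = 0.0464, 0.0765, 0.0441 and 0.111), and *Ctsd* was added (0.26 log2, adjusted p = 0.148).

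*Ctsz* in KD mice was lower on an HFD than on chow in all 4 livers, by an estimate of -0.39 log2 (SE 0.102, and -0.34 without replicate 1 of HFD/FGFR4 KD) that is a description with no test. *Ctsc* (-0.26), *Ctsf* (-0.088), *Ctsh* (0.057) and *Ctsd* (0.17 log2) were not called in KD mice. *Ctsf* was thus called lower with the diet in saline-treated and not in KD mice. That difference is the same quantity as the difference between its KD effects (0.46 log2, SE 0.183), which contains the contrast that chose the family and is given as a description. For that difference 0.0353% of all genes were past the threshold by limma-voom. The summed CPM of the 10 genes was 1383 ± 52.2 in Chow and 1404 ± 54.5 in Chow/FGFR4 KD livers, and the lowest HFD liver (1477) was above the highest Chow liver (1424). In KD mice the totals overlapped, with the lowest HFD/FGFR4 KD liver at 1424 and the highest Chow/FGFR4 KD liver at 1472.

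The rise of *Ctss* with the diet came with a rise of macrophage markers. Of 20 listed markers 15 were tested, and 13 of these were called higher in HFD than in Chow livers (median 1.04 log2). In KD mice 6 of 15 were called higher (median 0.51), and with KD none was called on chow (median 0.46) or on an HFD (median -0.10). The summed markers ran from 105 to 111 CPM in Chow, 125 to 172 in Chow/FGFR4 KD, 176 to 308 in HFD and 155 to 259 CPM in HFD/FGFR4 KD livers, and none of the 20 was at 0 in every liver. *Adgre1*, which encodes F4/80, was 2.5 ± 0.899 CPM in Chow and 7.02 ± 2.75 CPM in HFD livers (SD, n = 4). *Clec4f*, the Kupffer cell lectin, went from 20.5 ± 2.21 to 38.3 ± 13.6 CPM, *Cd68*, a macrophage lysosomal membrane protein, from 1.16 ± 0.363 to 4.64 ± 0.944 CPM and *C1qa* from 8.75 ± 0.254 to 18.3 ± 4.49 CPM. The part of macrophages in the *Ctss* change, or in that of any other cathepsin, was not tested, and in whole liver a change in the number of cells of a type and in RNA per cell cannot be told apart. Between HFD and HFD/FGFR4 KD livers the ranges of the summed macrophage markers overlapped, and the part of macrophages in the *Ctsz* difference was not tested.

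**Figure D3:**
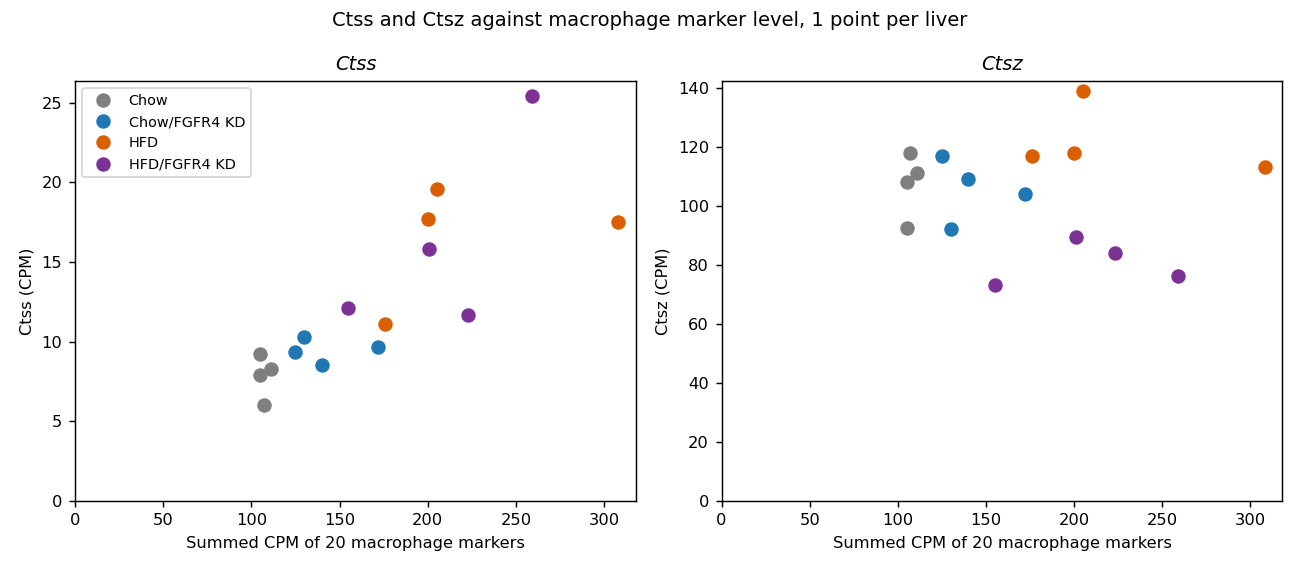
CPM of *Ctss* (left) and *Ctsz* (right) against the summed CPM of 20 macrophage markers, 1 point per liver, coloured by group; both axes start at 0. The 8 chow-fed livers lie at the low left for *Ctss*. The HFD/FGFR4 KD livers lie lowest for *Ctsz*. Summed markers run from 155 to 259 CPM in HFD/FGFR4 KD and from 176 to 308 CPM in HFD livers.

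Markers of other cell types gave a mixed picture with the diet, beside 26% of all genes called in saline-treated and 20.2% in KD mice. Of 8 stellate cell markers 5 were called higher in HFD livers (176 to 297 CPM summed, against 108 to 149 in Chow), and 2 in KD mice. Of 8 endothelial markers 3 were called higher in saline-treated and 1 in KD mice, and of 8 hepatocyte markers 5 were called lower in saline-treated and 1 in KD mice. Of 6 cholangiocyte markers 2 were tested, with 1 called lower with the diet in KD mice. No marker of these lists was called with KD, other than the hepatocyte gene *Ttr*, named after its values were seen, at -0.51 log2 on an HFD. Neutrophil, T and NK cell, and B and plasma cell markers were too low to test, at no more than 4.41, 5.48 and 5.88 CPM summed in any liver, and the neutrophil marker *Mpo* was at 0 in all 16. The part of these cells in the cathepsin changes was not tested.

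The 13 cathepsin genes outside the 10 were nearly silent. Of these, 9 had no count in any liver, among them the neutrophil protease *Ctsg*, and none was tested. The highest values were 1.04 CPM for *Ctse*, 0.65 CPM for *Ctsw*, a lymphocyte cathepsin, and 0.613 CPM for the osteoclast protease *Ctsk*, and *Ctsj* had 1 count in 1 liver.

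The wider lysosome was set beside the cathepsins through 97 listed genes, of which 86 were tested. With an HFD in saline-treated mice 26 of the 86 (30.2%) were called, 20 higher and 6 lower, with a median of 0.094 log2. In KD mice 17 (19.8%) were called, 10 higher and 7 lower. With both directions pooled, these shares are close to the 26% and 20.2% of all genes. By direction, 13.3% of all genes were called higher and 12.7% lower in saline-treated mice, with a median of 0.007 log2. The calls of the 86 thus leaned to the higher side there. In KD mice 10.1% of all genes were called higher and 10.1% lower. With KD on chow none of the 86 was called by limma-voom, edgeR or DESeq2. The median of the 86 was -0.046 log2 with KD on chow (0.0041 over all genes) and -0.10 log2 with KD on an HFD (0.0035 over all genes). With KD on an HFD 4 (4.65%) were called, all lower, against 3.14% of all genes (356 genes). The count was 1 without replicate 1 of HFD/FGFR4 KD, 1 with library totals only and 0 when only the groups compared were fitted. Over all genes the calls in these 3 settings were 138, 114 and 222. Named after their values were seen, these were *Man2b1*, a lysosomal mannosidase (-0.27 log2), *Lamp1*, a major lysosomal membrane glycoprotein (-0.25), and the proton pump subunits *Atp6v0e* (-0.42) and *Atp6v1f* (-0.41).

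Among the 30 hydrolases, 10 rose and 2 fell with an HFD in saline-treated mice, and 7 rose and 2 fell in KD mice. *Arsa*, the sulfatide-degrading arylsulfatase, rose by 0.86 log2 in saline-treated mice (limma-voom adjusted p = 0.00361) and by 0.67 log2 in KD mice (adjusted p = 0.0409). *Ppt1*, a thioesterase, rose by 0.60 log2 in saline-treated mice (adjusted p = 0.00569) and was also called higher in KD mice (0.37 log2). *Gm2a*, a ganglioside activator protein, fell by 0.51 log2 in saline-treated and 0.36 log2 in KD mice (adjusted p = 0.00713 and 0.0721). The acid phosphatase *Acp5* fell by 0.28 log2 in KD mice (adjusted p = 0.139).

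The other proteases and the inhibitors gave fewer calls. Of 6 other lysosomal proteases tested, *Lgmn*, the legumain that processes cathepsin precursors, rose by 0.45 log2 in saline-treated mice (limma-voom adjusted p = 0.051) and 0.33 log2 in KD mice (adjusted p = 0.224), and *Tpp1*, a tripeptidyl peptidase, by 0.24 log2 in saline-treated mice (adjusted p = 0.124). Of 6 cathepsin inhibitors tested, 2 rose and 1 fell with the diet in saline-treated mice and none was called in KD mice. *Cst3*, the secreted cystatin C, rose from 69.9 ± 8.32 to 85.1 ± 7.31 CPM (0.29 log2, adjusted p = 0.129) and the serpin *Serpina3g* from 3.64 ± 1.05 to 6.86 ± 1.2 CPM (0.94 log2, adjusted p = 0.0943). *Serpinb1a*, an inhibitor of neutrophil serine proteases and cathepsin G, fell by 1.15 log2 (adjusted p = 0.0741).

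Of 16 lysosomal membrane proteins, 5 rose and 1 fell in saline-treated mice and 1 rose in KD mice. *Laptm5*, a transmembrane protein of haematopoietic cells, rose by 0.90 log2 (limma-voom adjusted p = 0.0202), the calcium channel *Mcoln1* by 0.32 log2 (adjusted p = 0.0637) and the chloride exchanger *Clcn7* by 0.33 log2 (adjusted p = 0.0757). *Scarb2*, which encodes the lysosomal membrane protein LIMP-2, fell by 0.25 log2 (adjusted p = 0.0921). The cholesterol exporter *Npc1* rose by 0.46 log2 in KD mice (adjusted p = 0.212) and was also called higher in saline-treated mice (0.52 log2). The 15 V-ATPase subunits tested, which acidify the lysosome, were split. In saline-treated mice *Atp6v1b2* rose by 0.27 and *Atp6v1g1* fell by 0.32 log2 (adjusted p = 0.167 and 0.078), and in KD mice *Atp6v0a1* rose by 0.21 (adjusted p = 0.225) while *Atp6v0e*, *Atp6v1c1* and *Atp6v0b* fell by 0.32, 0.29 and 0.21 log2 (adjusted p = 0.192, 0.155 and 0.231). Of 13 sorting and control genes, the sorting receptor *Sort1* fell from 22.3 ± 2.91 to 9.89 ± 4.02 CPM in saline-treated mice (-1.29 log2, adjusted p = 0.00143) and by 0.78 log2 in KD mice (adjusted p = 0.0571). *Tfe3*, a relative of TFEB, fell by 0.48 log2 in KD mice (adjusted p = 0.144).

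**Figure D4:**
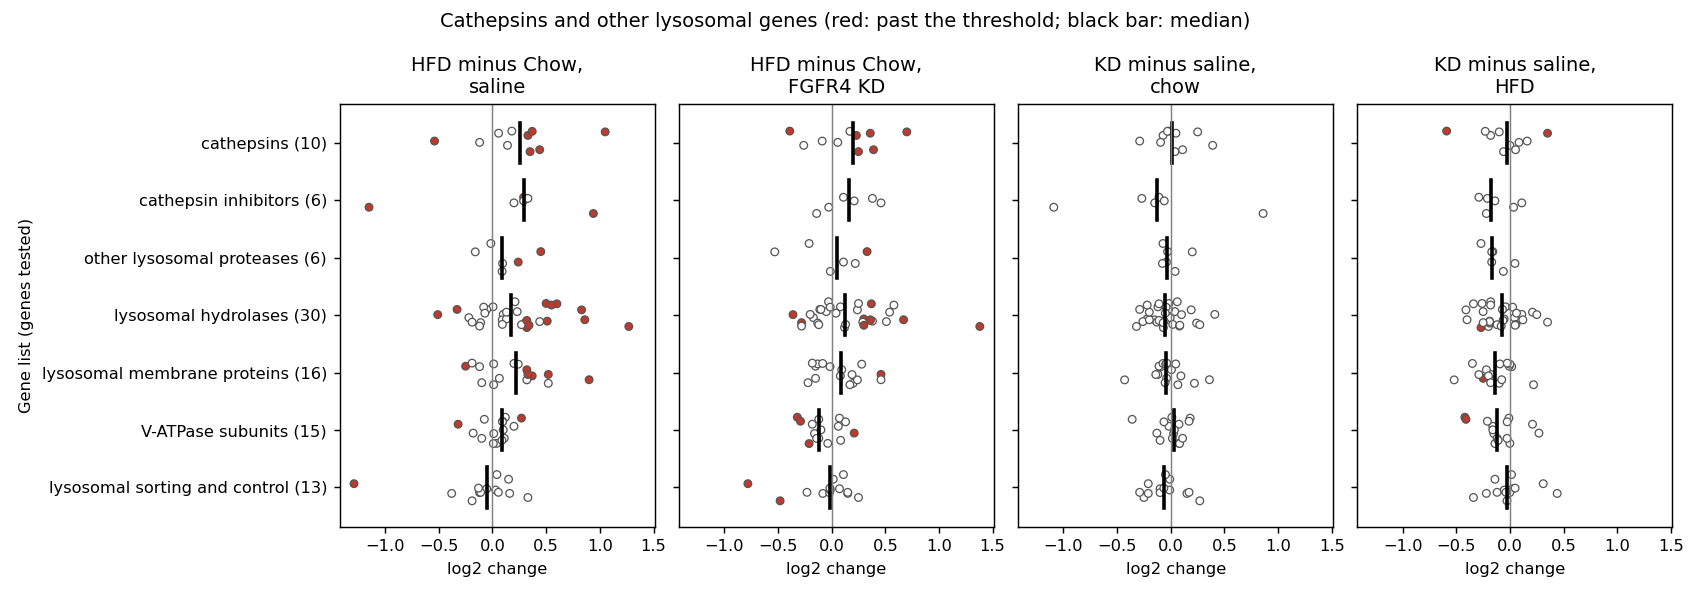
Log2 changes of the cathepsins and of 6 lists of other lysosomal genes in the 4 comparisons, 1 point per gene, with the vertical spread only to separate points; red points are past the threshold and black bars are medians. With KD on an HFD the cathepsins spread from -0.59 (*Ctsz*) to 0.35 (*Ctsl*) around a median of -0.031, and 4 of the 86 other lysosomal genes are past the threshold, all lower.

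Livers of a group also differed from each other, and the members only partly varied together. After the group means were taken out, the 45 pairs of members had Pearson correlations over the 16 livers from -0.53 (*Ctsd* and *Ctsf*) to 0.73 (*Ctsb* and *Ctss*), with a median of 0.21 and 30 pairs above 0. All points share the depth and composition of their library, so these are descriptions. *Ctsz* was closest to *Ctsa* among the members, at r = 0.61 (Spearman rho 0.62), which ranked 281 of 11323 genes. The 5 genes most like *Ctsz* were *Snhg5* (r = 0.91, rho 0.93), *Grpel2* (r = 0.91, rho 0.87), *Mia3* (r = 0.89, rho 0.92), *Mapre2* (r = 0.83, rho 0.75) and *Rab30* (r = 0.82, rho 0.81). *Snhg5* was low, at a mean of 2.23 CPM. With KD on an HFD these 5 ranged from -0.59 (*Rab30*) to 0.23 log2 (*Mapre2*), and with the group means kept none of the 5 stayed among the 5 genes most like *Ctsz*.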

How the data were processed

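The sources used here name fastp, kallisto and GRCm38, with gene-level import by tximport; versions and the transcriptome release are not given in the sources used here. The table deposited by the authors holds expected counts (kallisto's estimated counts per gene, not normalized) for all 16 libraries, 4 per group. The labels and the study's methods name different library kits, and neither gives strand or molecular identifiers. Groups came from the labels.

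The expected counts were scaled by TMM (edgeR 4.0.16) without rounding, and were rounded to whole counts only for DESeq2. Genes under 1 CPM in more than 4 libraries were left out, and a model of group means over all 16 libraries was fitted with limma-voom (limma 3.58.1, R 4.3.3), with thresholds after the study's methods. Benjamini-Hochberg adjustment ran over the 11324 genes tested. Intervals are at the 95% level. edgeR's quasi-likelihood test and DESeq2 1.42.0 were alternatives, as were other scalings, filters and leaving out each library. Likeness was Pearson's r of log2 CPM (prior count 2) after subtracting group means. Each sample is labelled as a separate mouse liver, so p-values measure the spread between mice. The study housed its mice 4 per cage. The labels do not give the cage of each mouse, so the part of cage in the group differences was not tested. Totals of 3445949 to 5976449 set the precision of low genes such as *Ctss* (23 to 128 counts). No pair of libraries in a group looked like a repeat (chi-square per degree of freedom 7.59 to 72.6 over 24 pairs). The tests were checked on simulated data.

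The cathepsins, gene lists and tests were chosen with earlier results of these data known. Named genes are all members, up to 3 rising and 3 falling called genes with the smallest p per lysosomal list and tested comparison, the 5 genes most like *Ctsz*, *Fgfr4* and 4 macrophage genes. Some genes that this rule selects are not reported here. Symbols and gene positions came from GENCODE vM21 (51250 of 52143 identifiers had a symbol), and lengths from the shortest principal transcript. No batch was labelled.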

Additional observations from a re-analysis of the deposited data

Results flagged for a closer look

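Within groups of 4 livers, the highest or lowest value was picked out by Dixon's test at the 95% level, which sets its distance from the next liver against the spread of all 4. Of 40 groups of cathepsin values, 2 were picked out, and about 2 are expected by chance. *Ctsf* in Chow was highest in replicate 4, at 21.1 CPM, with the other 3 livers at 16.4 to 16.8 CPM. *Ctsh* in HFD/FGFR4 KD was lowest in replicate 1, at 143 CPM, with the others at 156 to 158 CPM, and this liver is the one that lay among the chow-fed livers on the first principal component.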

How the results depend on the processing

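The 6 cathepsins called with the diet in saline-treated mice were called by edgeR and DESeq2 and in each of the 8 fits that left out a liver, where the count was 6 or 7. Not all 6 kept an adjusted p below 0.05. In those 8 fits the limma-voom adjusted p reached 0.132 for *Ctsd*, 0.101 for *Ctsb*, 0.0678 for *Ctsa* and 0.0528 for *Ctso*. It reached 0.046 for *Ctss* and 0.0415 for *Ctsf*. Over all genes 2939 were called by limma-voom, 2897 by edgeR, 2654 by DESeq2 and 2420 to 3018 in those 8 fits. Scaling by library totals only shifted the median of all genes by 0.29 log2 in that comparison and 0.14 in KD mice. With it 8 cathepsins were past the threshold, all higher, *Ctsz* among them as a description, where 4306 of the 11324 genes tested were called. *Ctsf* was lost (-0.27), *Ctsl* (0.34) and *Ctsc* (0.41) were added and *Ctsh* turned to 0.16. *Ctsf* in KD mice turned to 0.068, and with KD on chow *Ctsd* turned to 0.015 and *Ctsz* to 0.023. *Ctsz* on chow also turned to 0.026 without Chow replicate 2 and 0.041 without Chow/FGFR4 KD replicate 3, and *Ctsd* to 0.02 without Chow replicate 3 and 0.0094 without Chow/FGFR4 KD replicate 2. None of these reversed values was called, and over all fits without a liver *Ctsz* on chow ran from -0.091 to 0.041 and *Ctsd* from -0.08 to 0.02.

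The count with the diet in KD mice, 6 with *Ctsz*, was 2 at an adjusted p below 0.05, where 351 of all genes were called. It was 3 to 7 when a liver was left out, lowest without HFD/FGFR4 KD replicate 4. Over all genes those fits called 1189 to 2546, also lowest without that liver, against 2293 in the main fit. With KD on an HFD the count of 2 was 1 with library totals only and at an adjusted p below 0.05, where 114 and 31 of all genes were past the threshold. It was 1 or 2 when a liver was left out (89 to 605 of all genes), with *Ctsz* kept each time. *Ctsl* was lost without HFD/FGFR4 KD replicate 4. Nothing is read from *Ctsz* being kept, because this contrast set the choice of genes. For the difference between KD effects, which contains the contrast that chose the family, the count of cathepsins past the threshold was 1 (*Ctsz*) with DESeq2 and 0 with limma-voom and edgeR. Over all genes 62 were past the threshold with DESeq2, 4 with limma-voom and 4 with edgeR. Neither count of cathepsins is a test.

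The 4 calls among lysosomal genes with KD on an HFD were 2 with edgeR, 1 with library totals only, 8 with library quality weights, 0 with only the groups compared and at an adjusted p below 0.05, and 0 to 9 when a liver was left out (9 without HFD replicate 2, 1 without HFD replicate 1 or HFD/FGFR4 KD replicate 1, 2 without HFD/FGFR4 KD replicate 2, and 0 without HFD replicate 3, HFD/FGFR4 KD replicate 3 or replicate 4). Over all genes the calls with KD on an HFD were 246 with edgeR, 114 with library totals only, 776 with library quality weights and 222 with only the groups compared. They were 605 without HFD replicate 2, the most in any fit without a liver. The 26 lysosomal calls with the diet in saline-treated mice were 49 with library totals only and 9 at an adjusted p below 0.05 (4306 and 1042 over all genes). The 17 lysosomal calls with the diet in KD mice were 10 with no filter and 2 at an adjusted p below 0.05 (1724 and 351 over all genes). They were 8 to 18 when a liver was left out (8 without HFD/FGFR4 KD replicate 3 or 4, 11 without HFD/FGFR4 KD replicate 2 or Chow/FGFR4 KD replicate 4), where 1189 to 2546 of all genes were called. Of the 5 genes most like *Ctsz*, 3 or 4 stayed when a liver was left out and 0 with group means kept. The causes were not tested.

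Same-numbered livers did not steadily deviate together (correlations of deviations from the group means from -0.291 to 0.239 in the pairs of groups examined), and the main fit does not pair them. Livers with different numbers were not compared, and a batch behind the numbers was not tested. With the replicate block the lysosomal genes with KD on an HFD gave 2 calls (259 over all genes), and the block changed the call of no cathepsin.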
